A study of Caenorhabditis elegans with 10 samples.

Results

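The genes of RAD-51 strand exchange and of the DNA damage checkpoint were examined in germline tumours of Caenorhabditis elegans with and without GLP-1/Notch signalling. The set was chosen by gene symbol in the deposited table, not by measured values, and held 10 genes (rad-51, rad-54, rfs-1, brc-1, brc-2, brd-1, atm-1, atl-1, chk-1 and hus-1) of 46536 in all. Earlier results of these data were nevertheless known when it was chosen. All worms were of the Bristol strain and carried gld-2(q497) gld-1(q485), mutations that remove regulators of meiotic entry, so germ cells overproliferate in both groups. Worms with GLP-1 ON also carried the glp-1(ar202) allele, with which the germline Notch receptor is overactive, and worms with GLP-1 OFF carried the null allele glp-1(q175). Ribosome-depleted total RNA came from germlines dissected on day 1 of adulthood after 48 h of growth at 25 °C from synchronised larvae, with 5 libraries per group. Neither group is a wild-type germline, the tumours were compared only with each other, and fewer cells of a type cannot be told apart from less RNA per cell in dissected tissue.

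RAD-51 is the recombinase that coats resected single-stranded DNA and exchanges it with an intact duplex. BRC-2, the BRCA2 homologue, loads RAD-51, the RAD-51 paralogue RFS-1 remodels the filament, the translocase RAD-54 acts on the RAD-51 filament and the duplex it invades, and BRC-1 with BRD-1 forms a ubiquitin ligase that promotes repair from the sister chromatid. The kinases ATM-1 and ATL-1 (ATR) and the clamp subunit HUS-1 sense breaks and stalled forks, and CHK-1 carries the ATL-1 signal to the cell cycle. In the worm germline this machinery serves replication in dividing cells and the programmed breaks of meiosis.

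The libraries held 17.5 to 38.5 M reads in genes, where 1 M is the library total to which values in CPM (reads of a gene per 1 M reads) are scaled. Every member was covered by 234 reads or more in every library. Between 38.96% and 50.8% of reads lay in ribosomal RNA genes, with 44.6 ± 3.65% in ON and 44.1 ± 5.10% in OFF (SD, n = 5 each). Transcripts of the receptor gene glp-1, of which the groups carry different alleles, ranged from 206 to 274 CPM in ON and from 69.7 to 101 CPM in OFF. Germ cell markers summed to 1667 to 2355 CPM in ON and 1543 to 2229 CPM in OFF, whereas summed intestinal markers lay between 1.22 and 11.9 CPM over all libraries. Body wall muscle markers summed to 12.9 to 33.1 CPM in ON (median 16.2) and 15.3 to 26.8 CPM in OFF (median 23.9). Neuronal markers summed to 24.4 to 32.2 CPM in ON (median 26.1) and 23.9 to 35.9 CPM in OFF (median 32.1). Means of at least 1 CPM were reached by 7 of 8 germ cell and 4 of 5 muscle genes. Only 1 of 7 intestinal and 2 of 6 neuronal genes reached that mean. Summed markers of gonadal sheath and other somatic gonad cells (6 of 7 listed genes were in the table, 3 of them with a mean of at least 1 CPM) ran from 23.5 to 32.0 CPM in ON and from 29.6 to 41.7 CPM in OFF, and the part of these cell types in the differences described here was not tested.

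All 10 genes passed the filter of 1 CPM in at least 5 libraries and were tested. Of these, 1 gene, rad-54, was lower in ON and 0 were higher at an adjusted p under 0.05 (limma on log2(CPM + 1), Benjamini-Hochberg adjustment over all 6833 tested genes). Among all tested genes 12.4% were called lower and 6.7% higher (19.1% in either direction), so the count of 1 in 10 lay near the background. The number of members with an unadjusted p under 0.05 was 3, against 31.2% of all tested genes. The median log2 difference of the 10 genes was -0.14 and that of all tested genes was -0.05. Calls shifted with library scaling. After scaling with TMM, which sets library factors so that most genes stay level, rad-54, rfs-1 and chk-1 were called lower and brc-2 was called higher, while 18.2% of all tested genes were called lower and 16.5% higher (34.8% in either direction). The ON and OFF libraries did not overlap for 1 member, rad-54, against 9.92% of all tested genes with ON lower, 5.01% with ON higher and 14.9% in either direction. After TMM scaling this held for 3 members, rad-54, rfs-1 and chk-1, against 12.8% with ON lower, 11.6% with ON higher and 24.4% in either direction. The share of calls that were higher in ON was 35.1% without TMM and 47.5% with it.

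**Figure D1:**
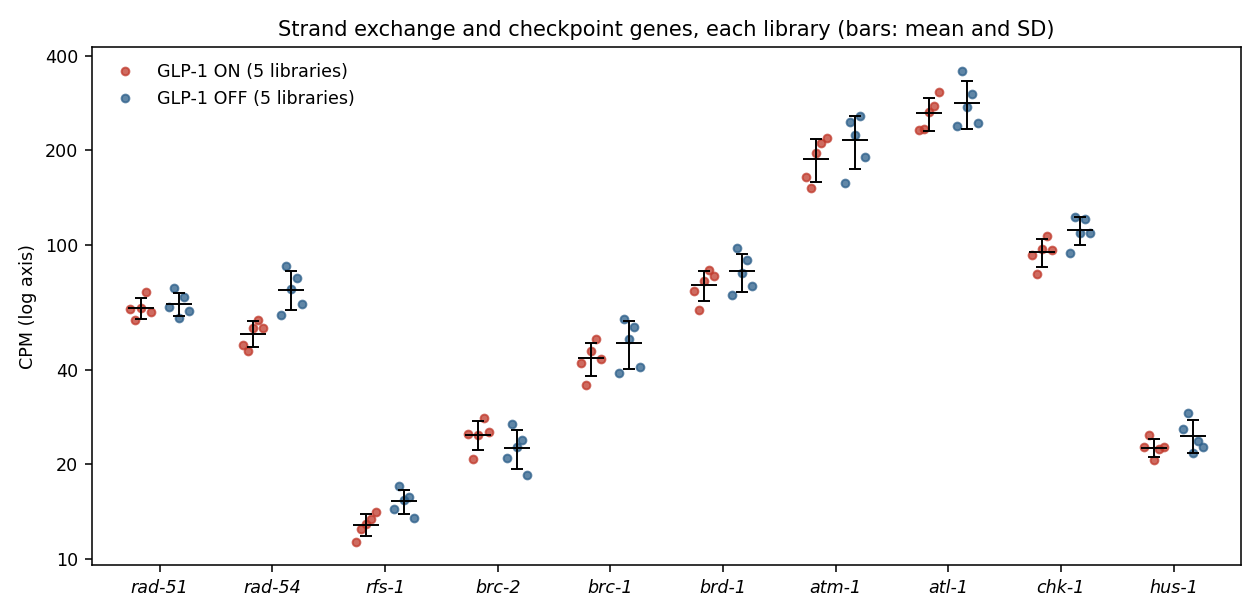
Level of each gene in CPM (log axis) in the 5 GLP-1 ON and 5 GLP-1 OFF libraries, with black bars for mean and SD. The ON and OFF points are apart only for rad-54, and the rad-51 points lie at 57.4 to 72.9 CPM in both groups.

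**Figure D2:**
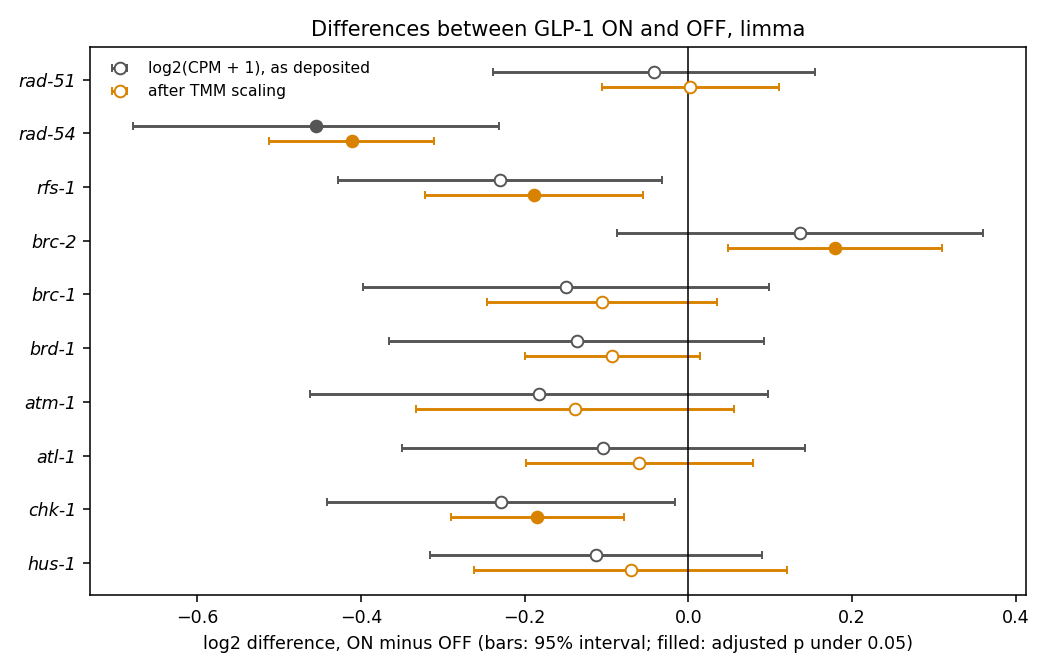
Log2 difference (ON minus OFF) of each gene with its 95% interval, on CPM as deposited (grey) and after TMM scaling (orange), with filled symbols for an adjusted p under 0.05. The rad-54 interval lies below 0 on either scale, and rfs-1, chk-1 and brc-2 have filled symbols only after TMM.

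The recombinase transcript itself did not pass the test. The rad-51 level (chromosome IV, 10281634 to 10284244, minus strand, coordinates of the WBcel235 assembly here and below) was 62.3, 57.4, 62.8, 70.8 and 61.3 CPM in ON replicates 1 to 5, and 63.3, 72.9, 58.6, 68.0 and 61.5 CPM in OFF. The groups overlapped over most of their range. The means were 62.9 ± 4.90 CPM and 64.8 ± 5.64 CPM (SD, n = 5), and the log2 difference was -0.041 with a 95% interval from -0.24 to 0.16 (limma adjusted p = 0.808). On the TMM scale the difference was 0.0022, of the opposite sign, with an interval from -0.11 to 0.11 (limma adjusted p = 0.98).

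The transcript of the translocase RAD-54 fell. Levels of rad-54 (chromosome I, 9065079 to 9070264, plus strand; named rad-54.L in the current annotation) were 48.0, 45.7, 54.5, 57.7 and 54.3 CPM in ON and 59.8, 85.3, 72.1, 78.2 and 64.8 CPM in OFF. Every ON library lay below every OFF library. The mean fell by 27.7%, from 72.0 ± 10.2 CPM to 52.1 ± 4.97 CPM (SD, n = 5). The log2 difference was -0.45 with a 95% interval from -0.68 to -0.23 (limma adjusted p = 0.0045), and exact permutation of the 252 ways to divide the libraries gave a two-sided p of 0.00794, the smallest it can give. The call was kept in each of the 22 other settings tried, in which the log2 difference ran from -0.52 to -0.39. Library numbers fall into 3 runs, 56 to 58, 85 to 88 and 127 to 130, and within these the differences were -0.56, -0.70 and -0.22.

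Transcripts of the RAD-51 paralogue RFS-1 were low and somewhat lower in ON. Levels of rfs-1 (chromosome III, 8226478 to 8229989, plus strand) were 11.3, 12.4, 12.9, 13.4 and 14.1 CPM in ON and 14.4, 17.1, 15.4, 15.7 and 13.5 CPM in OFF. All but OFF replicate 5 lay above the highest ON library. The log2 difference was -0.23 with a 95% interval from -0.43 to -0.033 and did not pass the test (limma adjusted p = 0.0987; exact permutation test, two-sided, p = 0.0159). After TMM scaling it was -0.19, the groups no longer overlapped and the gene was called (limma adjusted p = 0.0305). Within the 3 runs of library numbers the unscaled differences were -0.44, -0.31 and -0.0019. The rfs-1 exons share 200 bp with exons of fbxl-1 on the same strand, a gene at a mean of 27.7 CPM, so reads from the shared stretch cannot be assigned with certainty.

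The gene for the RAD-51 loader was the only member with a higher mean in ON without scaling. Levels of brc-2 (chromosome III, 6900568 to 6903106, minus strand) were 25.0, 20.8, 24.8, 28.0 and 25.4 CPM in ON and 20.9, 26.9, 22.7, 23.8 and 18.4 CPM in OFF, so the groups overlapped. The log2 difference was 0.14 with a 95% interval from -0.087 to 0.36 (limma adjusted p = 0.414). TMM-scaled levels were 26.3, 22.9, 24.6, 26.4 and 25.3 CPM in ON and 22.8, 23.0, 23.0, 21.8 and 19.8 CPM in OFF. On that scale 4 of 5 ON libraries lay above all OFF libraries, and ON replicate 2 lay within the OFF range. The difference of 0.18 was called (limma adjusted p = 0.0358; exact permutation test, two-sided, p = 0.0238). Within the runs of library numbers the unscaled differences were 0.07, -0.15 and 0.48, and the TMM-scaled ones were 0.19, 0.033 and 0.35.

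Transcripts of the ubiquitin ligase subunits did not pass the test. Levels of brc-1 (chromosome III, 3853102 to 3862968, minus strand) were 42.1, 35.8, 45.9, 50.2 and 43.2 CPM in ON and 39.1, 58.2, 50.004, 54.8 and 40.8 CPM in OFF. Those of brd-1 (chromosome III, 6885207 to 6889504, minus strand) were 71.5, 62.0, 76.6, 83.3 and 79.5 CPM in ON and 69.3, 97.9, 81.0, 89.2 and 73.9 CPM in OFF. The groups overlapped for both genes, and OFF replicate 2 was the highest library for each. The log2 differences were -0.15 with a 95% interval from -0.40 to 0.098 for brc-1 (limma adjusted p = 0.42) and -0.14 with an interval from -0.37 to 0.093 for brd-1 (limma adjusted p = 0.427). The brd-1 gene lies 11063 bp from brc-2 on the same strand, with 2 protein-coding genes between them.

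The sensor kinase genes, which have the longest transcripts, had the highest CPM of the set and did not pass the test. Levels of atm-1 (chromosome I, 183364 to 208384, plus strand) were 164, 152, 196, 212 and 219 CPM in ON and 157, 247, 224, 258 and 190.3 CPM in OFF. Those of atl-1 (chromosome V, 9634849 to 9645595, minus strand) were 232, 233, 265, 277 and 307 CPM in ON and 239, 359, 275, 303 and 244 CPM in OFF. Each gene spread over more than the distance between its group means, and the groups overlapped. The log2 difference was -0.18 with a 95% interval from -0.46 to 0.097 for atm-1 (limma adjusted p = 0.379) and -0.10 with an interval from -0.35 to 0.14 for atl-1 (limma adjusted p = 0.596).

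Of the clamp and effector genes, chk-1 had a lower mean in ON on each scale but was called only on some. Levels of chk-1 (chromosome V, 3757153 to 3759469, minus strand) were 92.8, 80.5, 96.7, 107 and 96.5 CPM in ON and 94.1, 123, 109, 121 and 109 CPM in OFF. The overlap came from OFF replicate 1, which lay below 3 of 5 ON libraries, and the other OFF libraries lay above all ON libraries. Without scaling the log2 difference was -0.23 with a 95% interval from -0.44 to -0.016 (limma adjusted p = 0.13; exact permutation test, two-sided, p = 0.0635), and without OFF replicate 1 it was -0.29 and was called (limma adjusted p = 0.0393). After TMM scaling the groups no longer overlapped and the difference of -0.18 was called (limma adjusted p = 0.0107), and with ribosomal RNA left out of the library totals it was -0.22 (limma adjusted p = 0.0072). Within the runs of library numbers the unscaled differences were -0.21, -0.51 and -0.12.

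The clamp subunit gene hus-1 (chromosome I, 3698102 to 3699300, plus strand) had levels of 22.6, 24.7, 20.5, 22.4 and 22.6 CPM in ON and 25.9, 29.1, 21.6, 23.7 and 22.6 CPM in OFF. Its groups overlapped, and its log2 difference was -0.11 with a 95% interval from -0.32 to 0.089 (limma adjusted p = 0.461). Of the 10 genes, only rad-54, rfs-1 and chk-1 had the same sign in each of the 3 runs of library numbers without scaling. After TMM scaling this held for these 3 genes and also for brc-2, brd-1 and atm-1. Signs within runs were not counted for all tested genes. The third run holds 3 ON libraries and 1 OFF library, and the others 1 ON and 2 OFF, so these within-run values rest on few libraries.

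Much of the spread within a group was shared between members. Without scaling, OFF replicate 2 was the highest OFF library for 9 of the 10 genes and OFF replicate 1 the lowest for 6. In ON, replicate 2 was the lowest for 7 and replicate 4 the highest for 6. After TMM scaling OFF replicate 2 was the highest for 2. OFF replicate 1 was still the lowest for 6 but was then the highest for 3, against 0 without scaling. ON replicate 2 was then the lowest for 6 and ON replicate 4 the highest for 5. The ribosomal RNA share was 38.96% in OFF replicate 2, the lowest of all libraries, 50.8% in OFF replicate 1, the highest, 49.6% in ON replicate 2 and 40.1% in ON replicate 4. The coefficient of variation of a member within a group ranged from 6.58% to 19.2% without scaling and from 3.70% to 11.8% after TMM. It became smaller for 10 of 10 genes in OFF and for 9 of 10 in ON. Neither these counts nor the library ranks were made for all tested genes, so they are not shown to be particular to the members. For comparison, counting error was at most 6.54%, at the 234 reads of the library with fewest rfs-1 reads.

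**Figure D3:**
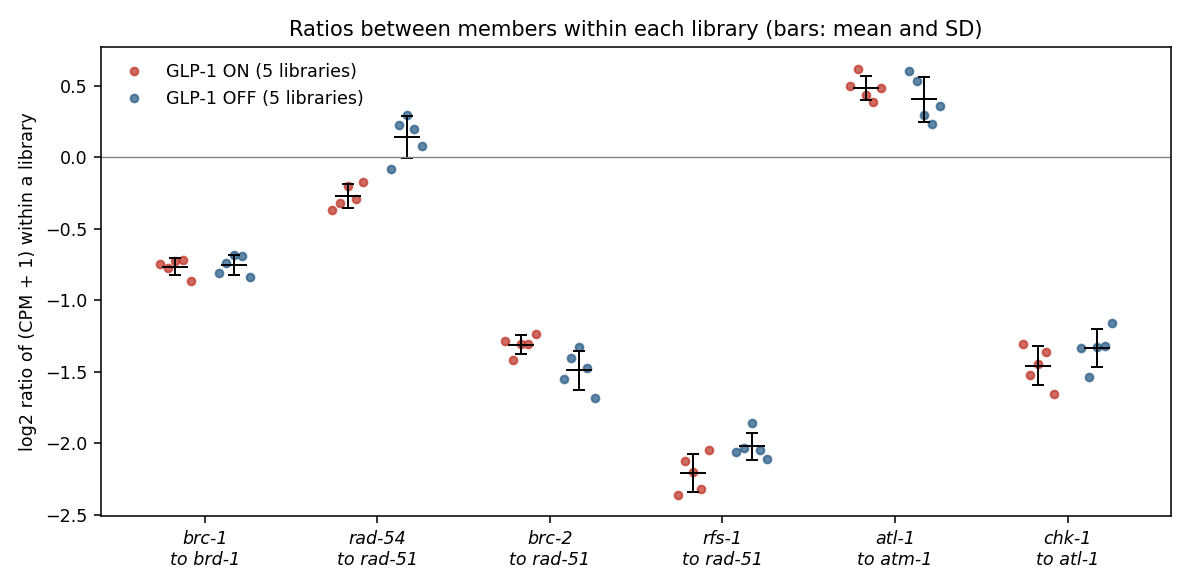
Log2 ratio of (CPM + 1) between 2 members within each library, for 6 pairs, with ON and OFF libraries as points and black bars for mean and SD. The ON points lie below all OFF points only for rad-54 to rad-51.

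Ratios between genes of 1 library depend little on its scaling, and 6 pairs with a shared function were compared. The pairs were chosen with earlier results of these data known. The CPM ratio of rad-54 to rad-51 was 0.771, 0.797, 0.867, 0.815 and 0.886 in ON and 0.945, 1.17, 1.23, 1.15 and 1.05 in OFF. All ON libraries lay below all OFF libraries. The difference of the log2 ratio was -0.41 (two-sided exact permutation, p = 0.00794; 0.0476 when adjusted for 6 pairs), and the differences within the runs of library numbers were -0.44, -0.57 and -0.30. When any 1 library was left out the unadjusted exact p was 0.0159, the smallest that 5 against 4 libraries allow. The adjusted p was 0.0476 without ON replicate 2 or 5 and 0.0952 without any other library. With the unadjusted p at its smallest each time, these adjusted values were set by the p-values of the other pairs. They do not show whether the rad-54 to rad-51 ratio depends on particular libraries.

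The ratios of the filament regulators to rad-51 moved in opposite directions and missed the threshold after adjustment. Mean ON and OFF ratios to rad-51 were 0.393 ± 0.0189 and 0.347 ± 0.0343 for brc-2, and 0.204 ± 0.0197 and 0.235 ± 0.0166 for rfs-1 (SD, n = 5). The log2 differences were 0.18 for brc-2 (exact permutation test, two-sided, p = 0.0238) and -0.19 for rfs-1 (p = 0.0317), each with an adjusted p of 0.0635. With a pseudocount of 0.25 CPM the adjusted p was 0.0476 for each, as it was for brc-2 without ON replicate 2 and for rfs-1 without ON replicate 5. With a pseudocount of 5 CPM the adjusted p rose to 0.0714 for brc-2 and 0.143 for rfs-1 (exact permutation test). When 1 library was left out it reached up to 0.127 for each. The brc-2 difference was 0.19, -0.017 and 0.40 within the runs of library numbers, and the rfs-1 difference -0.32, -0.17 and -0.078.

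Among the other pairs the ligase subunits had similar proportions in both groups. Mean brc-1 to brd-1 ratios were 0.582 ± 0.0239 (ON) and 0.588 ± 0.0292 (OFF; SD, n = 5), which differed by -0.013 on the log2 scale (two-sided exact permutation, p = 0.746; 0.746 when adjusted). The ratio lay between 0.544 and 0.617 in the 10 libraries, and this spread was not compared with that of gene pairs outside the set. The atl-1 to atm-1 ratio lay between 1.31 and 1.54 in ON and between 1.18 and 1.52 in OFF, and the chk-1 to atl-1 ratio had means of 0.362 ± 0.034 in ON and 0.396 ± 0.0366 in OFF. Their log2 differences of 0.079 and -0.12 did not pass the exact permutation test (adjusted p = 0.429 and 0.298).

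**Figure D4:**
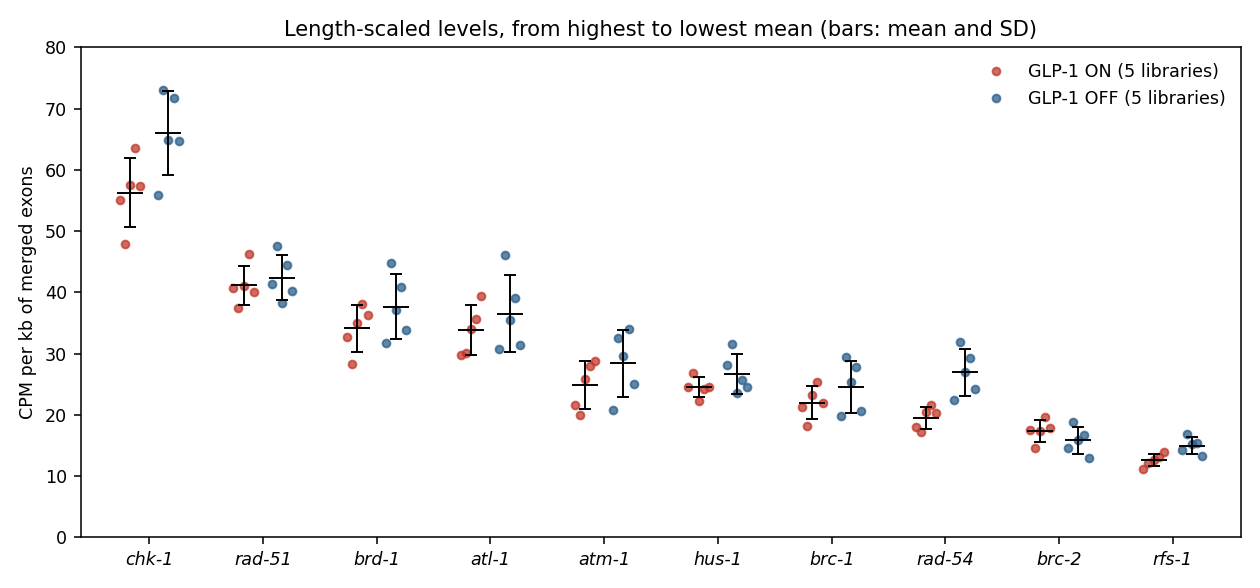
Level of each gene as CPM per kb of merged exons in every library, in order of the mean over the 10 libraries, with black bars for mean and SD of each group. The order runs from chk-1 at 61.2 to rfs-1 at 13.8 CPM per kb.

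Scaled to exon length, the transcripts spanned a 4.43-fold range. The effector kinase gene chk-1 was highest, at 61.2 ± 7.85 CPM per kb of merged exons (SD, n = 10 libraries), followed by rad-51 at 41.8 ± 3.32, brd-1 at 35.9 ± 4.71 and atl-1 at 35.2 ± 5.21 CPM per kb. Next came atm-1 at 26.6 ± 4.84, hus-1 at 25.6 ± 2.66, brc-1 at 23.3 ± 3.62 and rad-54 at 23.2 ± 4.85 CPM per kb. The lowest levels were those of brc-2, at 16.6 ± 2.09 CPM per kb, and rfs-1, at 13.8 ± 1.68 CPM per kb. Only chk-1 did not overlap with its neighbour in this order. In the same library rad-51 was above brd-1, atl-1 above atm-1 and rad-54 above brc-2 in 10 of 10 libraries, and brc-2 was above rfs-1 in 9. The neighbours brd-1 and atl-1 (7 libraries), atm-1 and hus-1 (7), hus-1 and brc-1 (6) and brc-1 and rad-54 (5) exchanged places between libraries. The place of rad-54 depended on the group, since its level was 19.5 ± 1.86 CPM per kb in ON and 27.0 ± 3.82 in OFF, whereas rad-51 was at 41.1 ± 3.20 and 42.4 ± 3.69 CPM per kb (SD, n = 5).

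**Figure D5:**
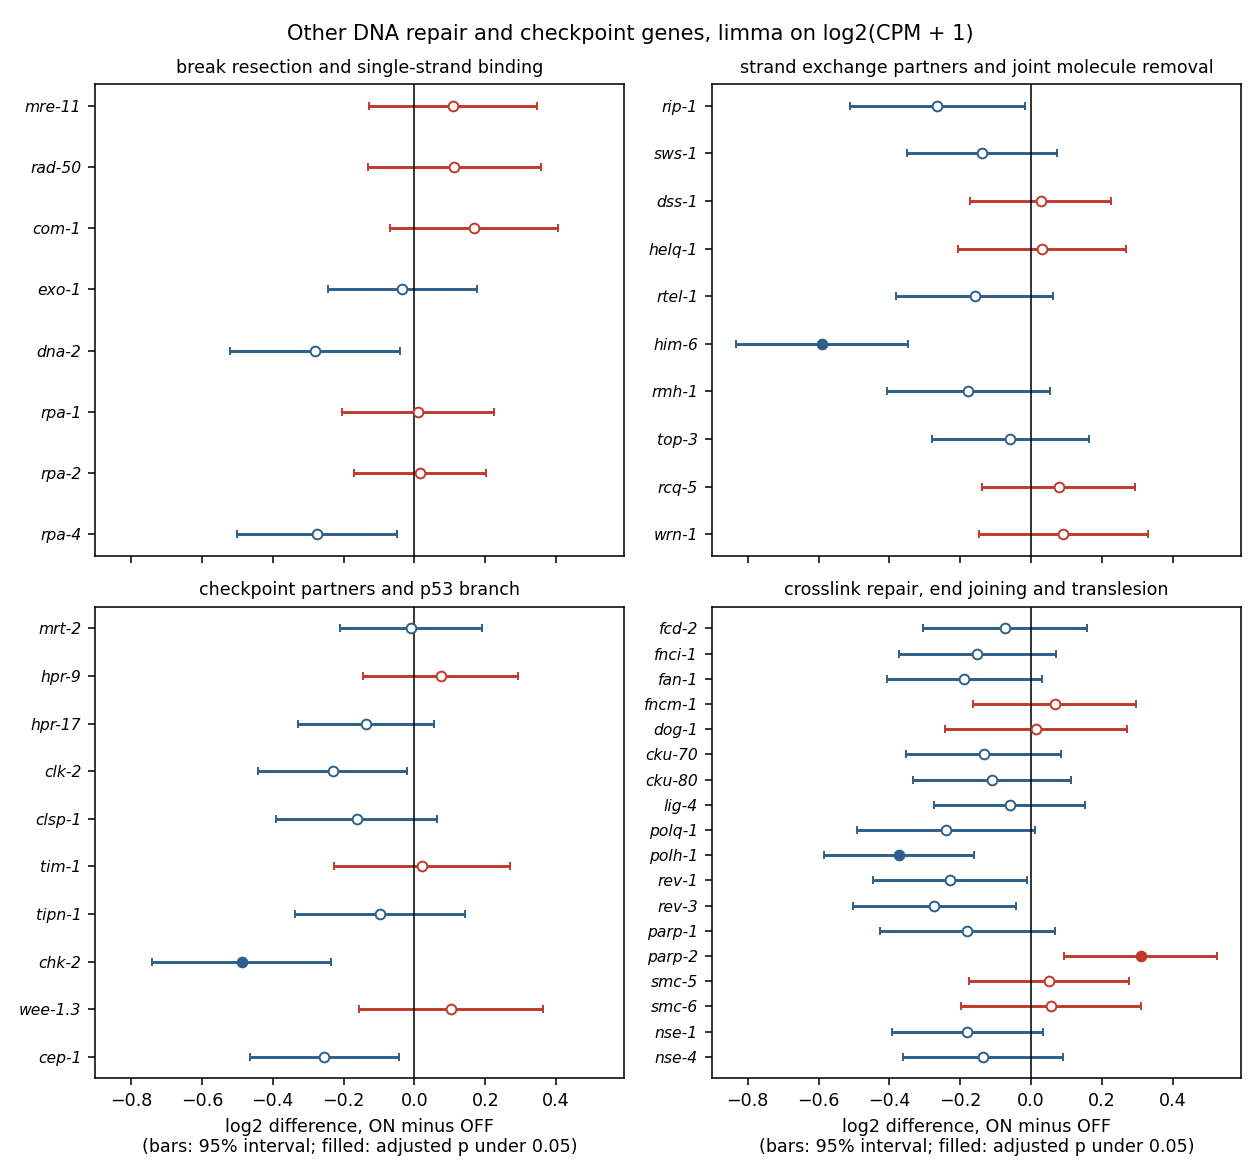
Log2 difference (ON minus OFF, log2(CPM + 1) scale) with its 95% interval for 46 tested genes in 4 lists of DNA repair and checkpoint genes, with filled symbols for an adjusted p under 0.05. Filled symbols are him-6, chk-2 and polh-1 below 0 and parp-2 above 0.

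Of 48 further DNA repair and checkpoint genes in 4 lists, 46 were tested, 3 fell and 1 rose (limma, adjusted p under 0.05), where 12.4% of all tested genes fell and 6.7% rose. These lists, too, were chosen with earlier results of these data known. The median log2 difference was -0.10, against -0.05 for all tested genes. After TMM scaling 12 were called lower and 4 higher, against 18.2% and 16.5% of all tested genes, with a median of -0.061. Without OFF replicate 1, 7 of the 46 were called lower, against 1060 of all 6833 tested genes.

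In break resection and single-stranded DNA binding, 0 of 8 tested genes were called in limma, against 19.1% of all tested genes in either direction. At an unadjusted p under 0.05 there were 2, against 31.2% of all tested genes, and the median log2 difference was 0.014. TMM called 2 lower and 2 higher (34.8% of all tested genes in either direction). The most abundant were rpa-1, which encodes the large subunit of the replication protein A complex that RAD-51 displaces, with means of 307 ± 25.4 CPM (ON) and 305 ± 36.3 CPM (OFF), rad-50, of the MRE-11 complex that starts resection, at 287 ± 33.5 and 267 ± 44.9 CPM, and rpa-2 at 153 ± 7.87 and 151 ± 9.53 CPM (SD, n = 5). Their log2 differences were 0.011, 0.11 and 0.016.

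Among strand exchange partners and genes that take joint molecules apart, 1 of 10 tested genes fell and 0 rose, which is near the 12.4% and 6.7% of all tested genes. The gene for the BLM helicase, him-6, which dissolves joint molecules and acts in meiotic crossing over, fell between means of 131 ± 20.6 CPM in OFF and 86.0 ± 10.4 CPM in ON (SD, n = 5), with 72.6 to 98.3 CPM in ON and 103 to 150.3 CPM in OFF. The groups did not overlap, and the log2 difference of -0.59 (limma adjusted p = 0.0011) exceeded that of rad-54 in size, although the difference between these genes was not tested. The helicase genes rtel-1, wrn-1 and rcq-5 had log2 differences of -0.16, 0.091 and 0.079 and were not called. After TMM 1 gene was lower and 1 higher (18.2% and 16.5% of all tested genes), the latter rcq-5 (limma adjusted p = 0.0475).

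Of the checkpoint partners, 1 of 10 tested genes fell and 0 rose, again beside 12.4% and 6.7% of all tested genes. The kinase gene chk-2, which in worms drives meiotic break formation and pairing, fell by 0.49 on the log2 scale (limma adjusted p = 0.0066) between means of 88.0 ± 7.82 CPM in OFF and 63.3 ± 12.7 CPM in ON (SD, n = 5), with overlap between 47.0 to 81.4 CPM in ON and 79.6 to 99.3 CPM in OFF. The p53 homologue gene cep-1 had means of 134 ± 19.2 CPM in OFF and 112 ± 5.69 CPM in ON. The cep-1 groups did not overlap, with 106 to 120 CPM in ON and 121 to 168 CPM in OFF. Its log2 difference of -0.25 was not called without scaling (limma adjusted p = 0.0861), was called without OFF replicate 1 (adjusted p = 0.047) and was called after TMM (adjusted p = 0.0154). The replication fork gene tim-1 and the CDK-1 inhibitory kinase gene wee-1.3 had log2 differences of 0.022 and 0.10 and were not called. The cell death genes that CEP-1 activates, egl-1 and ced-13, were below the filter, with 16 and 1 reads in all ON libraries together and 49 and 0 reads in all OFF libraries. After TMM scaling 3 genes of this list were lower and 0 higher, where 18.2% and 16.5% of all tested genes were.

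In crosslink repair, end joining and translesion synthesis, 1 of 18 tested genes fell and 1 rose, beside 12.4% and 6.7% of all tested genes. The translesion polymerase gene polh-1 fell by 0.37 on the log2 scale (limma adjusted p = 0.0129), its ON mean being 61.9 ± 4.77 CPM and its OFF mean 80.8 ± 10.2 CPM (SD, n = 5), with no overlap between groups. The poly(ADP-ribose) polymerase gene parp-2 rose from 113 ± 17.3 CPM to 140 ± 6.35 CPM (limma log2 difference 0.31, adjusted p = 0.041). The parp-2 call was lost when any 1 library other than ON replicate 2 or OFF replicate 2 was left out (adjusted p from 0.0716 to 0.0954). It was also lost without the filter on low values (adjusted p = 0.0909), with the replicate number as a block (adjusted p = 0.0502) and with the run of library numbers as a covariate (adjusted p = 0.129), all in limma. Of the most abundant genes without a call, smc-5 and smc-6, which form a repair complex related to cohesin, had log2 differences of 0.05 and 0.056, and the Fanconi gene fcd-2 had one of -0.073. After TMM scaling 6 genes of this list were lower and 1 higher, beside 18.2% and 16.5% of all tested genes.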

How the data were processed

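The authors deposited 1 table of gene-level signal for 10 RNA-seq libraries, in CPM (reads per 1 M reads of the library). STAR 2.0.4b, Subread's featureCounts 1.4.5, limma and edgeR are named in the submitters' processing notes. Build, annotation, strand setting and multi-mapping treatment: not given in the sources used here. Of 46998 rows, 462 repeated a gene with the same values and were dropped. Division by the smallest value above 0 gave whole reads for 100% of values (within 0.01 read).

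Groups and replicate numbers came from the titles. The 6833 genes that reached 1 CPM in 5 or more libraries entered limma 3.58.1 (R 4.3.3; log2(CPM + 1), variance trend across expression). P-values are two-sided, and log2 differences are ON minus OFF and understate the change of low genes. Exact permutation tests used SciPy 1.17.1. The recovered reads were tested with edgeR 4.0.16 and DESeq2 1.42.0 as alternatives. The limma procedure was tested on simulated data in which genes varied independently. That simulation held no spread shared by the genes of a library, so it does not cover such spread. The members and the 4 other lists, the pairs and the naming rule (all members, called genes of the other lists, and up to 3 uncalled genes per list by mean CPM) were chosen with earlier results of these data known. Of the listed genes, 3 were matched through their current symbol by gene identifier. Coordinates and exon lengths come from Ensembl's WBcel235 annotation by identifier, which need not be the authors' build. The design text calls the libraries biological replicates. Where paralogs share reads, values per gene are uncertain. Replicate numbers were not used as pairs in the main test. The correlation of deviations from group means between same-numbered libraries ran from -0.024 (number 2) to 0.46 (number 4). These values do not settle whether the numbers pair the libraries.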

Additional observations from a re-analysis of the deposited data

Results flagged for a closer look

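The cep-1 level in OFF replicate 2 was 168 CPM, against 121 to 132 CPM in the other 4 OFF libraries, and its distance from them was large for a group of 5. That library also had the lowest ribosomal RNA share. Among OFF libraries it had the highest level of 9 of the 10 strand exchange and checkpoint genes without scaling, and of 2 after TMM. The screen covered 64 groups of 5 values and picked out this 1, where chance picks out about 1 in 20.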

How the results depend on the processing

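The rad-54 call was kept under all 22 alternatives. Against 1 member called lower and 0 higher, 3 were lower with TMM, median-ratio scaling, ribosomal RNA left out of totals, edgeR and DESeq2, and 2 with TMM plus the run of library numbers (an alternative chosen after seeing the data). With TMM, median-ratio scaling, edgeR, DESeq2 and TMM plus the run, 1 was higher. In the order TMM, median-ratio, edgeR and DESeq2, the log2 difference of rfs-1 was -0.19, -0.18, -0.20 and -0.18, that of chk-1 -0.18, -0.17, -0.19 and -0.18, and that of brc-2 0.18, 0.19, 0.19 and 0.20, all called, while that of rad-51 turned to 0.0022, 0.014, 0.0013 and 0.014 and was not called. With ribosomal RNA left out, rfs-1 (-0.23) and chk-1 (-0.22) were called, and with TMM plus the run, brc-2 (0.20) and chk-1 (-0.22) were. The cause was not tested. Over all 6833 tested genes 458 were higher and 847 lower, and 1129 and 1247 with TMM. The same counts were 1219 and 1153 with median-ratio scaling, 780 and 1275 with ribosomal RNA left out, and 1145 and 1237 with edgeR. They were 1323 and 1211 with DESeq2, and 1012 and 1112 with TMM plus the run.

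For the 4 other lists (3 lower, 1 higher), TMM gave 12 lower and 4 higher, median-ratio scaling 10 and 6, ribosomal RNA left out 10 lower, edgeR 11 and 4, DESeq2 12 and 6, and TMM plus the run 8 lower. The higher count was 0 without a filter, with the run as covariate and with the replicate block, parp-2 being the gene lost. In that order, 529 of 21677, 356 of 6833 and 517 of 6833 tested genes were called higher. With the run as covariate, rpa-1 (-0.022) and tim-1 (-0.038) changed sign without a call. With 0.25 CPM as pseudocount, the brc-2 (0.18) and rfs-1 (-0.20) ratios to rad-51 passed. With 5 CPM (0.16 and -0.14) neither did.

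Leaving out 1 library in turn gave 1 to 2 members lower, 3 to 7 genes of the other lists lower and 0 to 1 higher. Over all 6833 tested genes these fits called 620 to 1060 lower and 346 to 628 higher. The log2 difference ranged from -0.084 to 0.0011 for rad-51, -0.29 to -0.17 for chk-1, -0.22 to -0.081 for brc-1, 0.069 to 0.20 for brc-2, -0.19 to -0.072 for brd-1, -0.29 to -0.11 for atm-1, -0.16 to -0.016 for atl-1, -0.16 to -0.053 for hus-1, -0.045 to 0.070 for rpa-1, -0.0082 to 0.046 for rpa-2, -0.070 to 0.081 for tim-1, -0.014 to 0.12 for smc-5 and -0.033 to 0.13 for smc-6. The ratio differences ranged from -0.035 to 0.011 (brc-1 to brd-1), -0.47 to -0.38 (rad-54 to rad-51), 0.13 to 0.22 (brc-2) and -0.23 to -0.15 (rfs-1).

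The titles give both groups the same replicate numbers. With the replicate block, rad-54 stayed lower (log2 difference -0.45, limma adjusted p = 0.0028) and was the only member called, and the higher count of the other lists was 0. Same-numbered libraries correlated by -0.024 to 0.46, and ON replicates 1, 4 and 5 correlated best with the OFF library of their number, replicates 2 and 3 with another. The lowest member, rfs-1, rested on 234 to 543 reads per library, so at this depth its counting error reached 6.54%.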
